A study of Mus musculus with 24 samples.

Results

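Glycolysis breaks glucose down to pyruvate in the cytosol, and tumours commonly turn much of that pyruvate into lactate. When oxygen is low, the prolyl hydroxylases that mark the alpha subunit of hypoxia-inducible factor (HIF) for destruction slow down, and HIF then switches on glucose transporters, glycolytic enzymes and genes of pH control, mitophagy, collagen hydroxylation and vessel growth. A set of 35 genes of these pathways was followed, chosen by symbol from textbook membership, with earlier results of these data known. It held the glucose carriers Slc2a1 and Slc2a3, the enzymes from hexokinase to lactate dehydrogenase, the oxygen sensors, and targets of HIF. The symbols matched 36 of the 55414 Ensembl genes in the count table, because Aldoa has a second identifier (ENSMUSG00000114515) besides its main one (ENSMUSG00000030695), and all 36 passed the expression filter that left 16029 genes for testing. In the 24 tumours together, the 36 took 1.31 to 2.09% of the counts.

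The tumours were grown from D4M, a mouse melanoma line, in wild-type C57BL/6 mice. The treatments, injected into the peritoneum, made 4 groups of 6 tumours: brequinar with anti-PD-1, which blocks an inhibitory receptor of T cells (BRQ+PD-1), brequinar with an IgG2a antibody (BRQ+IgG2a), anti-PD-1 by itself (PD-1), and the IgG2a antibody (IgG2a). Brequinar blocks dihydroorotate dehydrogenase, a mitochondrial enzyme of pyrimidine synthesis, and the study asked how it acts with PD-1 blockade in the tumour environment. Doses, days, ages and sexes were not known here, and all 4 groups share 1 tumour line and 1 host strain. The replicates were labelled biological, 1 library per tumour.

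Libraries held 19106205 to 34282319 counts. Values are given as CPM, the library-scaled count with TMM factors applied. Transcripts of skeletal muscle set 4 libraries apart: Acta1, the skeletal muscle actin gene, was at 4064 to 14960 CPM in PD-1 tumour 6, BRQ+IgG2a tumour 4 and IgG2a tumours 2 and 3, and at most at 425 CPM in the other 20. These are called muscle-rich below, BRQ+PD-1 held none, and results are given with and without them. The pigment cell markers Tyr and Dct had no count in any tumour, which allows up to 0.0875 to 0.157 CPM (3 counts) depending on the library, whereas Axl, a receptor of undifferentiated melanoma, was at 617 to 1018 CPM. Axl is 1 of 7 markers listed for that state, and which cells carried it was not tested. Mitf, a pigment cell regulator, was at 11.4 to 51.9 CPM and was higher in BRQ+PD-1 than in PD-1 (0.97 ± 0.28 on the log2 scale, edgeR adjusted p = 0.0474) and with brequinar over both antibodies (0.66 ± 0.20, 0.0307); its part in the results was not tested. In such bulk tissue, fewer cells of a type and less RNA per cell cannot be told apart.

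The levels were compared between isozymes first, as CPM per kilobase of merged exons, because most steps of glycolysis have several genes. At some steps a single gene held most of the signal. Slc2a1, which encodes the glucose carrier GLUT1 (against Slc2a3, the carrier GLUT3), held 99.1 ± 0.556% of the summed level (mean ± SD, n = 24 tumours), Aldoa (against Aldoc) 99.5 ± 0.193%, and Ldha, the lactate-forming dehydrogenase subunit (against Ldhb), 99.1 ± 0.772%. P4ha1 held 91.9 ± 1.95% of the collagen prolyl 4-hydroxylase level, with P4ha2 as the other member. Pgam1 held 90.5 ± 17.7% of the phosphoglycerate mutase level and Eno1 86.6 ± 13.8% of the enolase level, or 97.9 ± 1.86% and 92.3 ± 1.70% over the 20 tumours that are not muscle-rich. Other steps were shared. Among HIF prolyl hydroxylases, which sense oxygen, Egln3 held 46.6 ± 3.97%, Egln1 37.5 ± 3.56% and Egln2 15.9 ± 2.77%. Bnip3 and Bnip3l, receptors that direct mitochondria to autophagy, held 54.3 ± 4.76% and 45.7 ± 4.76%. Pfkfb3 and Pfkfb4, whose products set the level of a sugar bisphosphate that activates phosphofructokinase, held 54.3 ± 8.40% and 45.7 ± 8.40%.

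The makeup of the hexokinase step is given by group. Hk2, the inducible hexokinase of tumours and muscle, held 28.8 ± 4.13% of the hexokinase level in BRQ+PD-1 and 30.5 ± 4.54% in BRQ+IgG2a, against 39.0 ± 5.54% in PD-1 and 38.3 ± 5.57% in IgG2a (SD, n = 6 each). Hk3, an isozyme known from myeloid cells, held 19.5 ± 5.69% in BRQ+PD-1 and 19.8 ± 5.31% in BRQ+IgG2a, against 14.7 ± 3.94% in PD-1 and 13.5 ± 6.01% in IgG2a. Hk1, the housekeeping isozyme, held 51.7 ± 2.65% in BRQ+PD-1 and 49.7 ± 3.56% in BRQ+IgG2a, against 46.3 ± 5.33% in PD-1 and 48.2 ± 6.07% in IgG2a. Without the muscle-rich libraries the Hk1 share was 51.7 ± 2.65% in BRQ+PD-1 (n = 6), against 48.0 ± 3.86% in PD-1 (n = 5) and 51.9 ± 2.54% in IgG2a (n = 4). The Hk2 share was then 30.6 ± 5.06% in BRQ+IgG2a (n = 5), against 38.3 ± 5.94% in PD-1 and 37.4 ± 3.80% in IgG2a. The Hk3 share was 19.4 ± 5.83% in BRQ+IgG2a, against 13.7 ± 3.44% in PD-1 and 10.7 ± 2.33% in IgG2a. These shares are a description and were not tested; the tests of each gene follow.

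BRQ+IgG2a against IgG2a asks what brequinar changed without PD-1 blockade. No gene of the set passed the test with all 24 tumours: 0 of 36 were called, against 3.46% of all genes tested (edgeR's quasi-likelihood test over all groups, Benjamini-Hochberg adjusted p under 0.05 across 16029 genes). At an unadjusted p under 0.05, 4 of 36 genes passed, against 14.8% of all genes. DESeq2 called 1, against 5.55% of all genes to which it gave an adjusted p, and limma voom called 3, against 13.1%. The log2 fold changes were positive for 29 genes and negative for 7, with a median of 0.11, against -0.01 over all genes. In simulated data for these 2 groups, edgeR found 18.6% of the differences set at 1.5-fold and 57.1% of those set at 2-fold. The changed genes were drawn from expressed genes at large, so these shares are not rates for the set. The lack of a call alone does not show that a level stayed the same, and the standard errors below differ between genes.

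Slc2a3, a high-affinity glucose carrier known from neurons and leukocytes, came nearest. Its lowest, median and highest levels were 4.15, 5.97 and 7.66 CPM in BRQ+IgG2a, against 1.59, 2.84 and 5.17 CPM in IgG2a. The 6 BRQ+IgG2a tumours all stood above the IgG2a mean, and the groups overlapped only through the muscle-rich IgG2a tumour 3. The log2 fold change was 0.88 ± 0.26 (SE), with an edgeR adjusted p of 0.0619 and a range of 0.00195 to 0.183 over the alternatives run. It was 0.0367 without BRQ+IgG2a tumour 5 and 0.0277 without IgG2a tumour 3. The far more abundant carrier gene Slc2a1 was at 142.5, 205 and 751 CPM in BRQ+IgG2a, against 160, 203 and 512 CPM in IgG2a, so that the ranges overlapped almost wholly (0.18 ± 0.38, adjusted p = 0.891).

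Car9, a membrane carbonic anhydrase of pH control and a strong HIF target, was at 17.3, 42.5 and 88.5 CPM in BRQ+IgG2a, against 19.5, 29.5 and 38.1 CPM in IgG2a. The 2 highest BRQ+IgG2a tumours were at or above 70.3 CPM while 1 lay below all IgG2a tumours, and the fold change was 0.74 ± 0.33 (edgeR adjusted p = 0.284). Pdk1, a kinase that inhibits pyruvate dehydrogenase, was at 120, 129 and 182.5 CPM in BRQ+IgG2a, against 100, 112 and 134 CPM in IgG2a. It stood above the IgG2a mean in 6 of 6 tumours (0.32 ± 0.14, edgeR adjusted p = 0.289). The aldolase gene Aldoc stood above that mean in 5 of 6 (0.52 ± 0.27, edgeR adjusted p = 0.392, or 0.021 without BRQ+IgG2a tumour 5, the one below it). Over the 21 alternatives run the adjusted p of Aldoc ranged from 0.021 to 0.704, and 2 of them called it. Without the muscle-rich libraries it was 0.512 by edgeR. Pfkfb3 was at 37.9, 48.1 and 64.3 CPM in BRQ+IgG2a, against 19.8, 27.5 and 73.2 CPM in IgG2a. All 6 BRQ+IgG2a tumours stood above the IgG2a mean and the ranges overlapped (0.47 ± 0.26, edgeR adjusted p = 0.423).

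The lowest values of the set belonged to Aldoa, at -0.71 ± 0.47 for its second identifier and -0.38 ± 0.28 for the main one. Among the other genes, log2 fold changes were 0.13 ± 0.13 for the phosphoglycerate kinase Pgk1, 0.04 ± 0.10 for Ldha, -0.23 ± 0.20 for Hk2 and -0.10 ± 0.14 for the lactate exporter Slc16a3. Those of HIF and its outputs were 0.01 ± 0.15 for Hif1a, 0.02 ± 0.15 for Egln3, 0.02 ± 0.27 for the vessel growth factor Vegfa, 0.34 ± 0.29 for Bnip3 and 0.24 ± 0.39 for the vasodilator peptide gene Adm. Their edgeR adjusted p ran from 0.647 to 0.986.

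T cell markers moved in the same comparison: 8 of 10 were higher in BRQ+IgG2a and the median of the 10 was 1.97 on the log2 scale. Their summed level ran from 26.6 to 170.5 CPM in BRQ+IgG2a and from 13.4 to 54.4 CPM in IgG2a. Macrophage markers were higher for 2 of 11, with sums from 1205 to 3329.7 CPM in BRQ+IgG2a and from 1312 to 2452 CPM in IgG2a. Of 7 neutrophil markers tested, 1 was higher (Csf3r, a receptor for a granulocyte growth factor), but the median of the 7 was -0.00. Neutrophil sums ran from 56.2 to 139 CPM in BRQ+IgG2a and from 72.4 to 300 CPM in IgG2a. Of all genes, 3.46% were called in this comparison. The part of these markers in the Slc2a3 value was not tested.

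**Figure D1:**
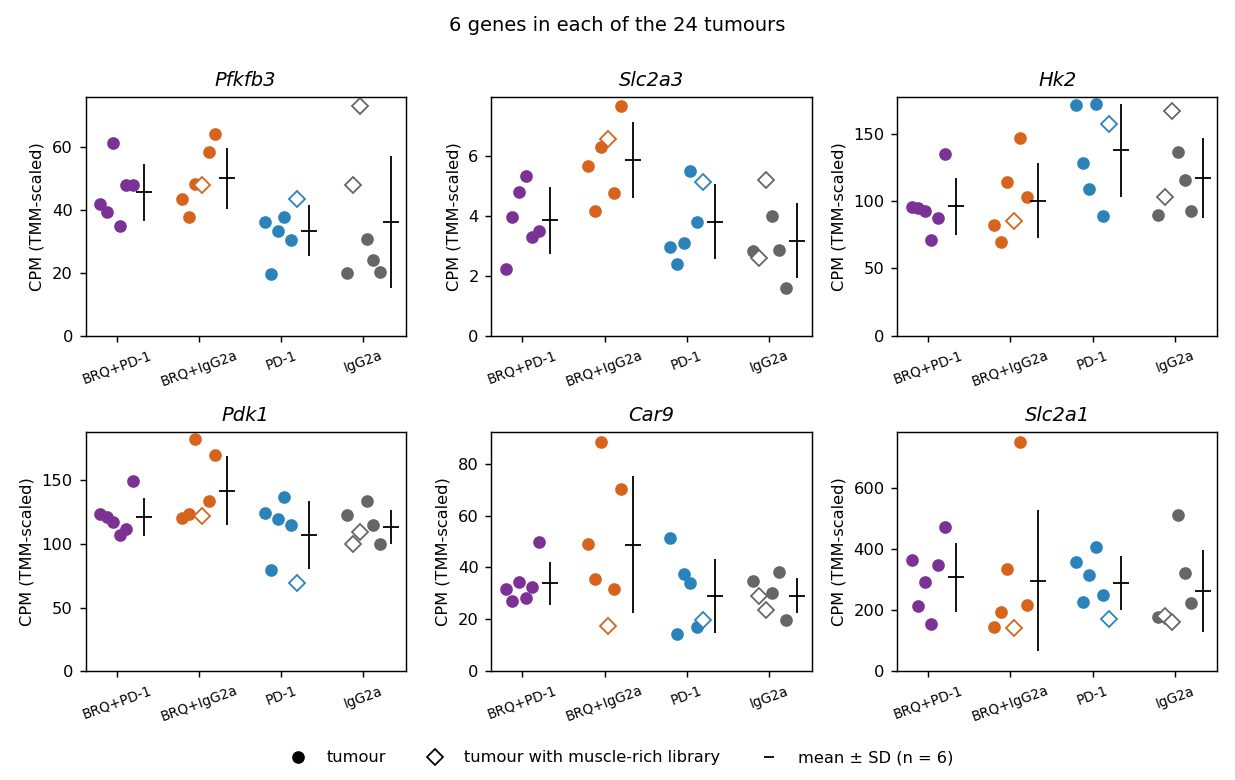
Normalised level (CPM, TMM-scaled) of 6 genes in each tumour, by group, with BRQ+PD-1 at the left and IgG2a at the right of each panel; points are tumours, open diamonds are the 4 muscle-rich libraries, and bars are mean ± SD (n = 6). The highest Pfkfb3 value, at 73.2 CPM, is a muscle-rich IgG2a tumour, and the highest Slc2a1 value, at 751 CPM, is a single BRQ+IgG2a tumour.

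BRQ+PD-1 against PD-1 asks the same of brequinar when PD-1 is blocked. Again 0 of 36 genes were called by edgeR, against 5.04% of all genes tested, 2 of 36 had an unadjusted p under 0.05, against 21.4%, DESeq2 called 0, against 8.78%, and limma voom called 1, against 13.6%. Positive and negative log2 fold changes were 18 each, with a median of 0.00, against 0.01 over all genes. Hk2 lay lowest, at 70.8, 93.7 and 134.9 CPM (lowest, median, highest) in BRQ+PD-1, against 88.8, 142.5 and 172 CPM in PD-1. All but 1 of the 6 BRQ+PD-1 tumours lay below the PD-1 mean, the ranges overlapped, and the fold change was -0.52 ± 0.20 (edgeR adjusted p = 0.123). Gapdh, the dehydrogenase of the middle of the pathway, also lay below the PD-1 mean in 5 of 6 tumours (-0.28 ± 0.12, edgeR adjusted p = 0.173).

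The largest positive values in that comparison were those of Pfkfb3, at 34.9, 45.0 and 61.2 CPM in BRQ+PD-1 against 19.5, 34.7 and 43.5 CPM in PD-1, and of P4ha1, at 196, 331 and 422 CPM in BRQ+PD-1 against 175, 252 and 332 CPM in PD-1. The Pfkfb3 level was above the PD-1 mean in 6 of 6 tumours and P4ha1 in 5 of 6 (0.45 ± 0.26 and 0.39 ± 0.20, edgeR adjusted p = 0.329 and 0.274). The smallest after Hk2 was Car12, a second carbonic anhydrase, at -0.31 ± 0.68. Slc2a1 differed by 0.09 ± 0.38, Aldoa by -0.09 ± 0.28, Pgk1 by -0.02 ± 0.13, Ldha by -0.05 ± 0.10, Pdk1 by 0.18 ± 0.14 and Slc16a3 by -0.13 ± 0.14. Hif1a differed by 0.10 ± 0.15, Egln3 by -0.03 ± 0.15, Vegfa by 0.30 ± 0.27, Car9 by 0.23 ± 0.33, Bnip3 by 0.37 ± 0.29 and Adm by -0.05 ± 0.39, and none of these 12 had an edgeR adjusted p under 0.488.

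**Figure D2:**
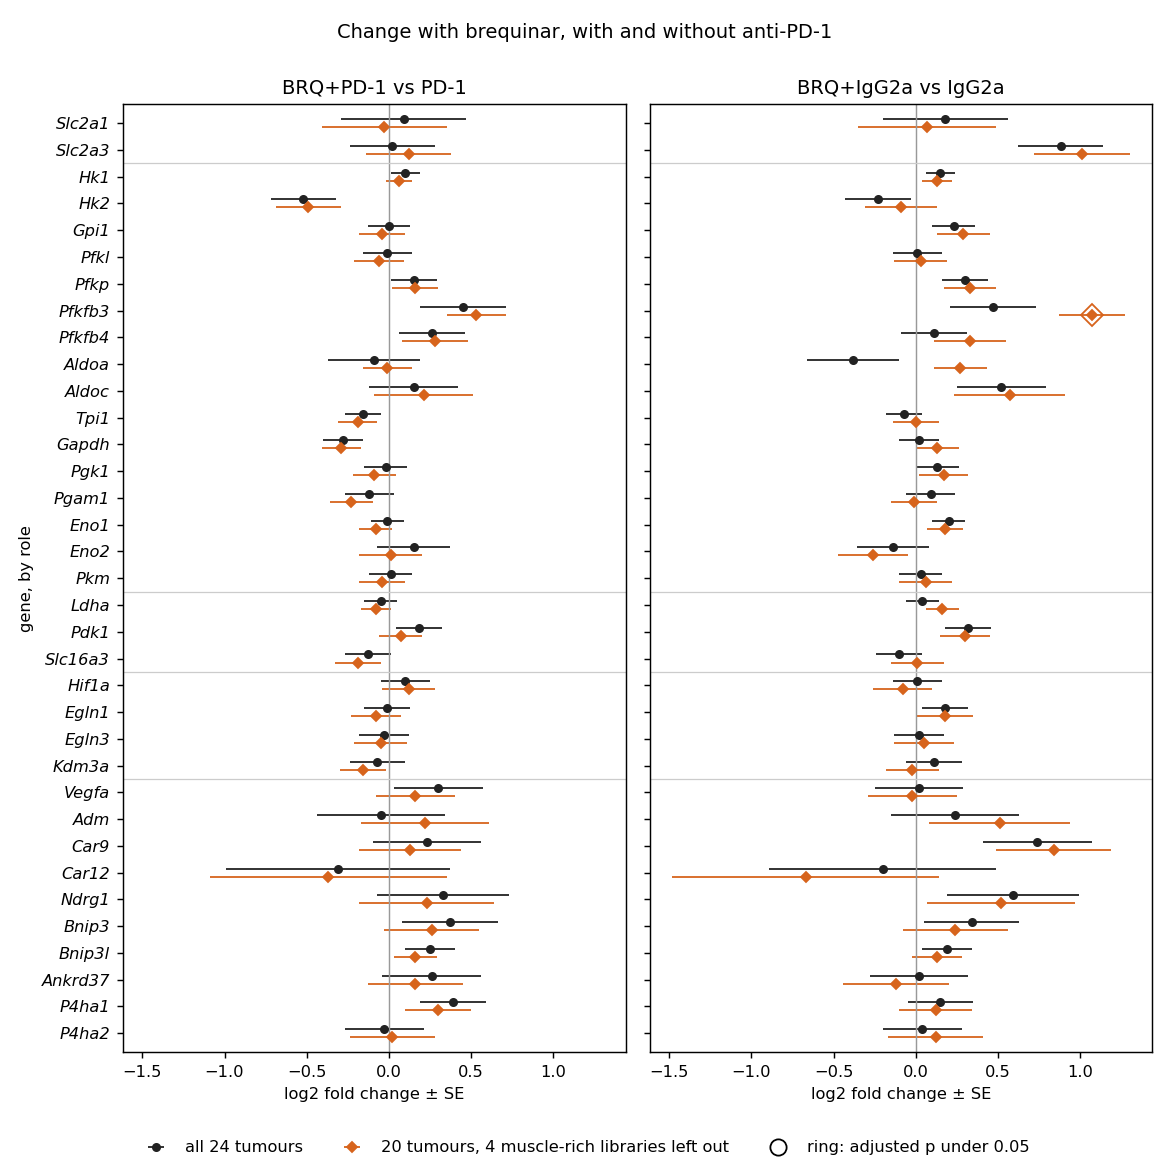
Log2 fold change ± SE of each gene, BRQ+PD-1 over PD-1 at the left and BRQ+IgG2a over IgG2a at the right, with all 24 tumours (black) and with the 20 that are not muscle-rich (orange); genes run from glucose uptake at the top to HIF targets at the bottom. The ring marks the 1 value with an edgeR adjusted p under 0.05, Pfkfb3 at 1.07 ± 0.20 in BRQ+IgG2a over IgG2a.

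Averaging the brequinar effect over both antibody backgrounds uses the 12 tumours on each side and called the most genes overall. Still 0 of 36 genes of the set were called by edgeR, against 12.5% of all genes tested, 7 of 36 had an unadjusted p under 0.05, against 27.7%, DESeq2 called 1, against 16.6%, and limma voom called 3, against 23.5%. Of the 36, 26 were positive, with a median of 0.09, against 0.01 over all genes. Hk2 had the lowest adjusted p, with a value of -0.38 ± 0.14 (edgeR adjusted p = 0.0766), and Pfkfb3 followed at 0.46 ± 0.18 (0.106). The adjusted p of Hk2 was 0.0222 without BRQ+IgG2a tumour 5, 0.0356 without BRQ+PD-1 tumour 6 and 0.0399 without PD-1 tumour 5. Over the 32 alternatives run it ranged from 0.0222 to 0.246, and 4 of them called Hk2. That of Aldoc, at 0.268 with all tumours, was 0.0296 without BRQ+IgG2a tumour 5. It ranged from 0.0292 to 0.449, and 2 of the 32 called Aldoc. Next by adjusted p came Slc2a3 (0.45 ± 0.18), Pdk1 (0.25 ± 0.10), Pfkp (0.22 ± 0.10), Bnip3l (0.22 ± 0.10) and Car9 (0.48 ± 0.23), with edgeR adjusted p of 0.11, 0.11, 0.135, 0.17 and 0.178. The differentiation-linked HIF target Ndrg1 had a value of 0.46 ± 0.28 and Aldoa -0.24 ± 0.20, or -0.49 ± 0.34 by its second identifier. Slc2a1 was at 0.13 ± 0.27, Pgk1 at 0.05 ± 0.09, Ldha at -0.00 ± 0.07, Slc16a3 at -0.11 ± 0.10, Vegfa at 0.16 ± 0.19, Bnip3 at 0.36 ± 0.21, Egln3 at -0.01 ± 0.11, Adm at 0.09 ± 0.28 and Hif1a at 0.06 ± 0.11.

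Leaving out the 4 muscle-rich libraries changed 1 gene's call. This was 1 of 36 genes, against 4.06% of all genes for BRQ+IgG2a over IgG2a. The share of all genes was 2.5% for BRQ+PD-1 over IgG2a and 10.1% over both antibodies. An excess of calls in the set was not tested. The gene, Pfkfb3, was called higher in these comparisons but was not called for BRQ+PD-1 over PD-1. Its levels were 43.5, 37.9, 48.2, 58.4 and 64.3 CPM in BRQ+IgG2a, against 19.8, 30.7, 24.2 and 20.4 CPM in IgG2a. Every BRQ+IgG2a tumour kept was above every IgG2a tumour kept, but the share of all genes separated in this way was not computed. The difference was 2.11-fold (1.07 ± 0.20 on the log2 scale, edgeR adjusted p = 0.00329, with 4.06% of 16179 genes called). With all 24 tumours the groups overlapped and the value was 0.47 ± 0.26 (edgeR adjusted p = 0.423). The BRQ+PD-1 tumours, at 42.1, 39.4, 61.2, 34.9, 47.9 and 48.1 CPM, also lay above all 4 of those IgG2a tumours (0.92 ± 0.19, edgeR adjusted p = 0.0136, with 2.5% of genes called), against 0.34 ± 0.26 with all 24 (0.462).

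Against PD-1 the picture was less separate. The 5 remaining PD-1 tumours were at 36.0, 19.5, 33.4, 37.8 and 30.5 CPM, so the highest passed the lowest BRQ+PD-1 tumour (0.53 ± 0.18, edgeR adjusted p = 0.111, with 3.1% of genes called), against 0.45 ± 0.26 with all 24 (0.329). Over both antibodies the Pfkfb3 value was 0.80 ± 0.13, or 1.74-fold, with an edgeR adjusted p of 0.000913 and 10.1% of genes called, against 0.46 ± 0.18 with all 24 (0.106). Over all alternatives run, the adjusted p of that last comparison ranged from 0.000913 to 0.207. The muscle-rich IgG2a tumours 2 and 3 were at 48.1 and 73.2 CPM of Pfkfb3. Without tumour 3 alone the value over both antibodies was 0.62 ± 0.15 (edgeR adjusted p = 0.0109), and without tumour 2 alone 0.50 ± 0.19 (0.0881).

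No gene of the set was called without these libraries in PD-1 against IgG2a, where 0.0124% of genes were, in BRQ+PD-1 against BRQ+IgG2a, where 0% were, or in the interaction, where 0.00618% were. Slc2a3 also had no overlap over these 20 tumours, at 4.15 to 7.66 CPM in BRQ+IgG2a against 1.59 to 3.98 CPM in IgG2a. Its value was 1.01 ± 0.29, with an edgeR adjusted p of 0.0556. The share of all genes without overlap was not computed, for Slc2a3 or for Pfkfb3 above. Hk2 came to -0.29 ± 0.15 over both antibodies (edgeR adjusted p = 0.246) and to -0.09 ± 0.22 in BRQ+IgG2a over IgG2a. The sign of Aldoa turned: the main identifier was at 0.27 ± 0.16 in BRQ+IgG2a over IgG2a and at 0.13 ± 0.11 over both antibodies, with edgeR adjusted p of 0.530 and 0.525. Its second identifier came to 0.23 ± 0.28 and 0.05 ± 0.19.

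The muscle-rich libraries carried the glycolytic isozymes of muscle as well. Aldoa was at 1725 to 4306 CPM in the 4 muscle-rich libraries and at 943 to 1740 CPM in the other 20. The muscle forms of enolase (Eno3, 172 to 714 against 26.5 to 78.8 CPM), phosphoglycerate mutase (Pgam2, 58.3 to 236 against 0.659 to 12.2 CPM) and phosphofructokinase (Pfkm, 180 to 538 against 40.4 to 68.3 CPM) did not overlap between these libraries and the rest. Pygm, the glycogen phosphorylase of muscle, was at 277 to 1501 against 0.346 to 43.0 CPM, and Slc2a4, the insulin-responsive glucose carrier, at 12.3 to 74.9 against 0.0507 to 2.17 CPM. Ldha, at 1301 to 1792 CPM against 1183 to 1673 CPM, overlapped. None of the 16 skeletal muscle markers tested was called by edgeR in any comparison, but the groups were not even in them. Their median log2 fold change was -1.94 in BRQ+IgG2a against IgG2a, -3.68 in BRQ+PD-1 against PD-1 and -2.69 over both antibodies. It was -6.01 in BRQ+PD-1 against IgG2a, -2.49 in PD-1 against IgG2a and -4.19 in BRQ+PD-1 against BRQ+IgG2a. Summed levels of these markers ran from 3.26 to 751 CPM in BRQ+PD-1 and 4.41 to 16110 CPM in BRQ+IgG2a. They ran from 6.72 to 11871 CPM in PD-1 and 7.96 to 47632 CPM in IgG2a. Without the muscle-rich libraries the T cell marker sums were 22.1 to 103 CPM in BRQ+PD-1 and 26.6 to 170.5 CPM in BRQ+IgG2a, against 25.7 to 49.2 CPM in PD-1 and 13.4 to 27.4 CPM in IgG2a, and their part in the Pfkfb3 values was not tested. These libraries were picked by Acta1, so the values are a description.

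**Figure D3:**
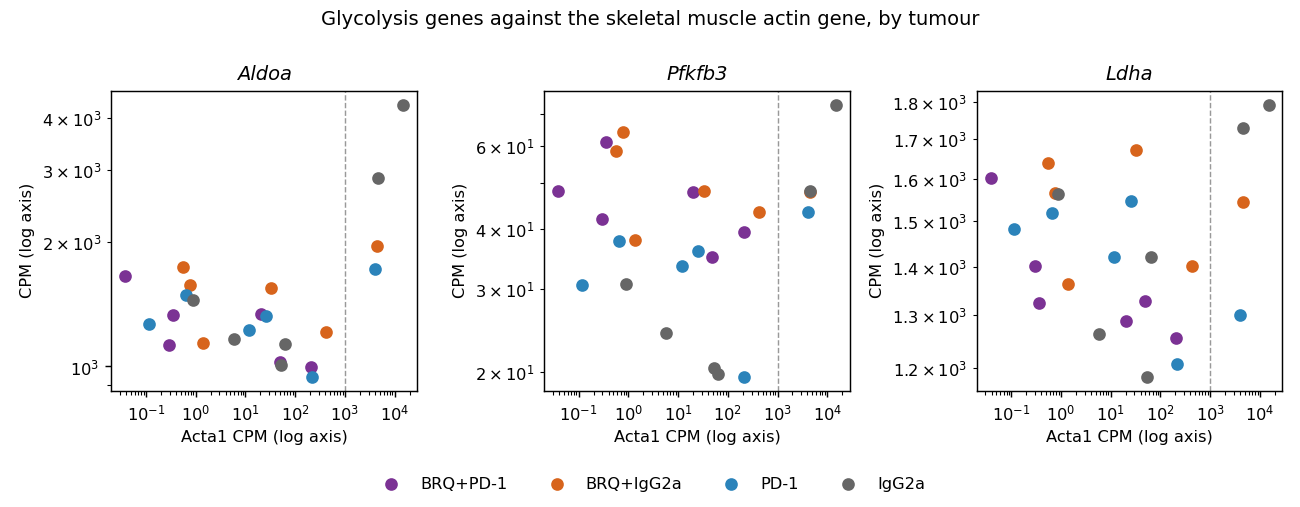
Level of Aldoa, Pfkfb3 and Ldha against Acta1 in each tumour (CPM, both axes logarithmic), coloured by group; the dashed line is the 1000 CPM of Acta1 above which a library is called muscle-rich. Right of the line Aldoa reaches 1725 to 4306 CPM, and left of it no tumour exceeds 1740 CPM.

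The promoter windows of Pfkfb3 are shown because it was the only gene of the set called in any of these edgeR fits without the muscle-rich libraries. They run from 250 bases before to 50 bases after an annotated start, from RefSeq on build GRCm38.p6, both on the minus strand of chromosome 2, at chr2:11553880-11554179 and chr2:11502041-11502340. Capitals mark ACGTG and GCGTG, the core letters of the hypoxia response element bound by HIF, on either strand; CACGTG reads as ACGTG on both strands.
Pfkfb3, first start: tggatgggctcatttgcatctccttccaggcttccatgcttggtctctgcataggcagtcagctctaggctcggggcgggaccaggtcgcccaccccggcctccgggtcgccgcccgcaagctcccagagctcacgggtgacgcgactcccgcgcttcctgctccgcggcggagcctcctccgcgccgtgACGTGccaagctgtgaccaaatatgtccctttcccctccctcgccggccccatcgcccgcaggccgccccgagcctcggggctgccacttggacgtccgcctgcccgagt
Pfkfb3, second start: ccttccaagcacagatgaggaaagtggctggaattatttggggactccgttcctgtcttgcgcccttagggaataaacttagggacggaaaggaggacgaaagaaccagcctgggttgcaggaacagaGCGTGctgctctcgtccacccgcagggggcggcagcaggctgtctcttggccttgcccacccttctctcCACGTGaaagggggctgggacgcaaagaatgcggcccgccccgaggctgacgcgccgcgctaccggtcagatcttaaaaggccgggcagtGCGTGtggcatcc
The first window holds ACGTG 1 time and no GCGTG, and the second holds ACGTG 2 times, once on each strand of its CACGTG, and GCGTG 2 times. A match describes the letters and is not evidence of binding.

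BRQ+PD-1 against IgG2a, the full combination against the control antibody, called 0 of 36 genes by edgeR, against 3.91% of all genes. At an unadjusted p under 0.05 there were 4 of 36, against 23.3%, DESeq2 called 1, against 10.6%, and limma voom called 2, against 9.01%. The median was 0.08, against 0.01 over all genes, with 24 positive and 12 negative. Hk1 stood above the IgG2a mean in 6 of 6 tumours, at 221, 242 and 280.5 CPM in BRQ+PD-1 against 188, 201 and 242 CPM in IgG2a (0.24 ± 0.09, edgeR adjusted p = 0.0990). Pfkp, the platelet-type phosphofructokinase, did too, at 87.1, 101 and 124 CPM against 68.3, 80.4 and 107 CPM (0.34 ± 0.14, edgeR adjusted p = 0.146). Both ranges overlapped.

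The largest positive values there were 0.48 ± 0.29 for Bnip3 and 0.47 ± 0.40 for Ndrg1. The lowest were -1.53 ± 0.48 for the second identifier of Aldoa (edgeR adjusted p = 0.0714, or 0.0409 without IgG2a tumour 6) and -0.67 ± 0.28 for the main one (0.152). Without the muscle-rich libraries the second identifier came to -0.17 ± 0.27, and its adjusted p ranged from 0.0189 to 0.816 over the alternatives run. Over the alternatives run, the main identifier ranged from -0.81 to 0.05. Slc2a1 differed by 0.23 ± 0.38, Hk2 by -0.29 ± 0.20, Pfkfb3 by 0.34 ± 0.26, Pgk1 by 0.01 ± 0.13, Ldha by -0.13 ± 0.10, Pdk1 by 0.10 ± 0.14 and Slc16a3 by -0.18 ± 0.14. Vegfa differed by 0.18 ± 0.27, Car9 by 0.22 ± 0.33, Egln3 by 0.08 ± 0.15, Adm by -0.28 ± 0.39 and Hif1a by 0.20 ± 0.15.

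PD-1 against IgG2a, the effect of the antibody alone, gave 0 of 36 calls by edgeR, against 0.0187% of all genes, with 2 of 36 at an unadjusted p under 0.05, against 6.46%, and 0 by DESeq2, against 0.232%, and by limma voom, against 0.0374%. The median was 0.01, against -0.00 over all genes. The range ran from Aldoa (-1.27 ± 0.48 and -0.58 ± 0.28 by its identifiers) to Slc2a3 (0.26 ± 0.26) and Car12 (0.61 ± 0.69), and no edgeR adjusted p was under 0.581. Without the muscle-rich libraries Aldoa came to -0.04 ± 0.28 by the second identifier and 0.06 ± 0.16 by the main one, and Pfkfb3 to 0.39 ± 0.20 (edgeR adjusted p = 1). With all 24 tumours, Slc2a1 differed by 0.13 ± 0.38, Hk2 by 0.23 ± 0.20, Pfkfb3 by -0.11 ± 0.26, Pgk1 by 0.03 ± 0.13, Ldha by -0.08 ± 0.10, Pdk1 by -0.08 ± 0.14 and Slc16a3 by -0.06 ± 0.14. Vegfa differed by -0.12 ± 0.27, Car9 by -0.01 ± 0.33, Bnip3 by 0.11 ± 0.29, Egln3 by 0.11 ± 0.15, Adm by -0.22 ± 0.39 and Hif1a by 0.10 ± 0.15.

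Adding anti-PD-1 to brequinar (BRQ+PD-1 against BRQ+IgG2a) likewise called 0 of 36 genes and 0% of all genes by edgeR, with 1 of 36 at an unadjusted p under 0.05, against 7.29%, and 0 by DESeq2, against 0.025%, and by limma voom, against 3.82%. Of the 36 values, 13 were positive and 23 negative, with a median of -0.10, against -0.01 over all genes. Slc2a3 was lower than the BRQ+IgG2a mean in 6 of 6 tumours, at 2.22, 3.72 and 5.33 CPM in BRQ+PD-1 against 4.15, 5.97 and 7.66 CPM in BRQ+IgG2a (-0.61 ± 0.26, edgeR adjusted p = 0.665). Eno2 (0.24 ± 0.22) and Car12 (0.50 ± 0.69) had the largest positive values and the second identifier of Aldoa the lowest (-0.82 ± 0.48). The values were -0.53 ± 0.33 for Car9, -0.52 ± 0.39 for Adm, -0.29 ± 0.28 for Aldoa, -0.22 ± 0.14 for Pdk1, -0.16 ± 0.10 for Ldha, -0.13 ± 0.26 for Pfkfb3 and -0.13 ± 0.13 for Pgk1. They were 0.05 ± 0.38 for Slc2a1, -0.06 ± 0.20 for Hk2, -0.08 ± 0.14 for Slc16a3, 0.15 ± 0.27 for Vegfa, 0.14 ± 0.29 for Bnip3, 0.06 ± 0.15 for Egln3 and 0.18 ± 0.15 for Hif1a.

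The interaction contrast asked if anti-PD-1 altered what brequinar did, and edgeR called 0 of 36 genes and 0% of all genes. At an unadjusted p under 0.05 there was 1 of 36 genes, Slc2a3 (-0.87 ± 0.37, edgeR adjusted p = 0.623), against 7.62% of all genes, and 0 were called by DESeq2, against 0.0961%, and by limma voom, against 1.67%. The median interaction was -0.09, against -0.00 over all genes, and Car9 had the next lowest value (-0.52 ± 0.47). Aldoa had the highest (0.45 ± 0.67 and 0.29 ± 0.40 by its identifiers), but -0.36 ± 0.37 and -0.28 ± 0.22 without the muscle-rich libraries, where Pfkfb3 came to -0.55 ± 0.26 (edgeR adjusted p = 0.701). With all 24 tumours, Slc2a1 (-0.09 ± 0.54), Hk2 (-0.29 ± 0.28), Pfkfb3 (-0.03 ± 0.37), Pgk1 (-0.15 ± 0.19), Ldha (-0.09 ± 0.14), Pdk1 (-0.14 ± 0.20) and Slc16a3 (-0.03 ± 0.20) lay between. So did Vegfa (0.27 ± 0.38), Bnip3 (0.03 ± 0.41), Egln3 (-0.05 ± 0.22), Adm (-0.29 ± 0.55) and Hif1a (0.08 ± 0.22).

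Other genes of the same pathways were tested alongside. Of 40 further glucose metabolism genes, 34 were tested, and of 41 further hypoxia genes, 39, or 73 in all. The share of the 73 called was 1.37% in BRQ+IgG2a against IgG2a, 2.74% in BRQ+PD-1 against PD-1 and 9.59% over both antibodies, below the 3.46%, 5.04% and 12.5% of all genes. In BRQ+IgG2a against IgG2a, Nampt, which makes the precursor of NAD, was the 1 called, at 136, 164 and 208.5 CPM in BRQ+IgG2a against 97.4, 116 and 139 CPM in IgG2a (0.50 ± 0.12, edgeR adjusted p = 0.0174). All 6 BRQ+IgG2a tumours exceeded the IgG2a mean, and the ranges met between 136 and 139 CPM. In BRQ+PD-1 against PD-1, 2 fell. Ddit4, a stress-induced inhibitor of mTORC1, was at 41.5, 68.5 and 76.4 CPM in BRQ+PD-1 against 73.3, 94.9 and 145.0 CPM in PD-1 (-0.67 ± 0.18, edgeR adjusted p = 0.0292). Pgm2, a phosphoglucomutase family gene, was at 37.1, 40.8 and 43.4 CPM in BRQ+PD-1 against 42.7, 49.5 and 55.9 CPM in PD-1 (-0.28 ± 0.08, edgeR adjusted p = 0.0414). Both were below the PD-1 mean in 6 of 6 tumours, and their ranges overlapped only at the edges.

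Over both antibodies, 3 of these genes rose with brequinar and 4 fell. Nampt rose (0.31 ± 0.08), as did Pdk3, a sister kinase of Pdk1 (0.18 ± 0.06), and Cited2, which competes with HIF for its coactivator (0.22 ± 0.07). Gpt2, the mitochondrial alanine transaminase, fell (-0.53 ± 0.14), as did Tigar, which lowers the activator made by Pfkfb enzymes (-0.66 ± 0.20), Ddit4 (-0.42 ± 0.12) and Pgm2 (-0.20 ± 0.06), with edgeR adjusted p from 0.0157 to 0.0416 for the 7. The highest Tigar level of IgG2a, 26.9 CPM, lay in a muscle-rich library, and without these libraries it was 11.2 CPM. In BRQ+IgG2a the highest was 15.9 CPM with and 9.08 CPM without them. The PD-1 maximum, 17.6 CPM, was also a muscle-rich tumour. BRQ+PD-1 held no such library, and its highest Tigar level was 8.61 CPM. The part of muscle content in the fall of Tigar was not tested. No further gene was called in the other 4 comparisons. Without the muscle-rich libraries Hk3 was called as well. Among the tumours kept, Hk3 was at 26.3 to 53.6 CPM in BRQ+IgG2a against 13.5 to 22.5 CPM in IgG2a. The log2 fold change was 1.04 ± 0.26 there (edgeR adjusted p = 0.0262) and 0.75 ± 0.17 over both antibodies (0.00947). Macrophage markers were higher for 3 of 11 over both antibodies, neutrophil markers lower for 1 of 7 (Mmp9, a matrix protease) and T cell markers higher for 7 of 10, and their part in the Hk3 value was not tested.

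Several HIF targets varied widely between tumours of the same treatment. The SD of log2 CPM within groups, over the 20 tumours that are not muscle-rich, was 1.15 for Car12, which exceeded that of 97.9% of all genes tested, then 0.74 for Ndrg1, 0.70 for Adm, 0.66 for Slc2a1, 0.60 for Aldoc, 0.56 for Car9, and 0.53 for Bnip3 and for Ankrd37, an ankyrin repeat gene of the HIF response. The lowest of the set were 0.15 for Eno1, 0.14 for Ldha and 0.13 for Hk1, the last exceeding 13.3% of genes. The median was 0.29 for the set and 0.27 for all genes.

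Some tumours were high for several of these targets at once. Vegfa was at 126, 247 and 299 CPM in BRQ+PD-1, 114, 190 and 340 CPM in BRQ+IgG2a, 97.3, 184 and 246 CPM in PD-1, and 131, 182 and 276 CPM in IgG2a (lowest, median, highest). Slc2a1 was at 154, 321 and 472 CPM in BRQ+PD-1, 142.5, 205 and 751 CPM in BRQ+IgG2a, 172.5, 282 and 408.5 CPM in PD-1, and 160, 203 and 512 CPM in IgG2a. BRQ+IgG2a tumour 5, PD-1 tumour 4 and IgG2a tumour 4 were the highest of their groups for both, and in BRQ+PD-1 tumour 5 led for Vegfa and tumour 6 for Slc2a1.

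**Figure D4:**
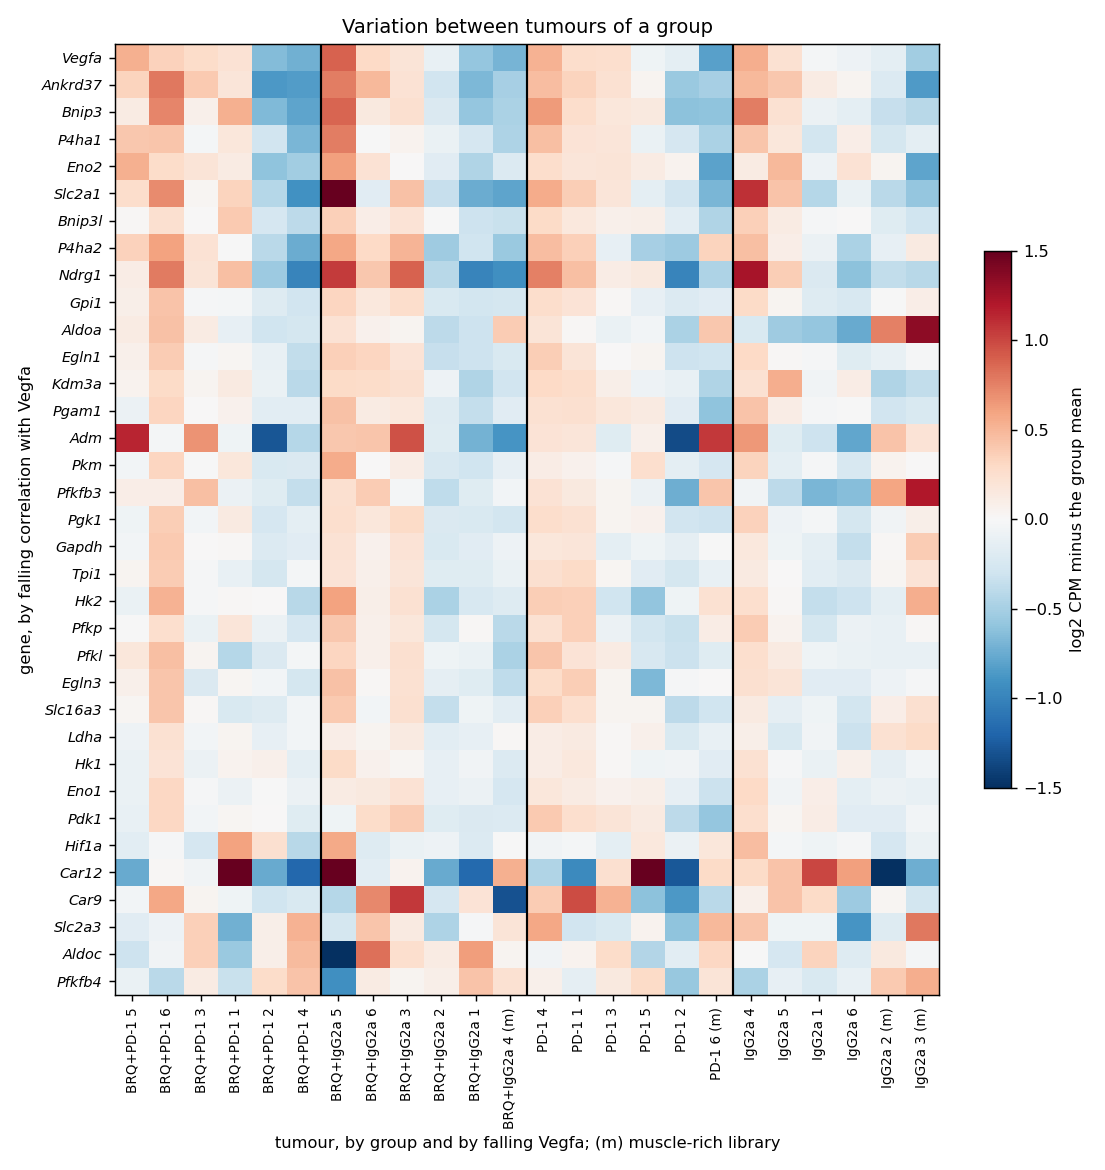
Log2 CPM minus the group mean for each gene (rows, by falling correlation with Vegfa) in each tumour (columns, by group from BRQ+PD-1 at the left to IgG2a at the right, and by falling Vegfa within a group); red is above and blue below the group mean, (m) marks muscle-rich libraries. Most rows change from red to blue from left to right within each group, while Aldoc and Pfkfb4 at the bottom run the other way.

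To give this a number, every gene's log2 CPM was correlated with that of Vegfa over the 20 tumours that are not muscle-rich. Group means were removed first, and Vegfa was chosen as the axis with earlier results of these data known. Of the 35 other genes of the set, 22 were called, all with a positive r, against 9.95% of all 16028 genes called and 4.42% called with a positive r (permutation within groups, 100000 draws, Benjamini-Hochberg over all genes). The median r was 0.72 over the set and 0.00 over all genes. Ankrd37 held rank 3 of all 16028 genes, with r = 0.94 and Spearman's rho = 0.92, both at 1e-05, the smallest p these permutations give (adjusted p = 0.00302 and 0.00327). The mitophagy gene Bnip3 (r = 0.91, rho = 0.91) and the collagen hydroxylase gene P4ha1 (r = 0.91, rho = 0.89) followed, then the enolase gene Eno2 (0.90, 0.79), Slc2a1 (0.89, 0.88), Bnip3l (0.87, 0.86), P4ha2 (0.86, 0.87) and Ndrg1 (0.86, 0.85), all with an adjusted permutation p at or below 0.0272 for both measures. Without the 2 tumours farthest from the Vegfa median, BRQ+PD-1 tumour 4 and BRQ+IgG2a tumour 1, the r of these 8 was 0.77 to 0.90.

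Glycolytic enzymes followed with lower values. The isomerase Gpi1 had r = 0.84 (rho = 0.86), Aldoa 0.82 (0.86), Pgam1 0.80 (0.78), the pyruvate kinase gene Pkm 0.76 (0.74), Pgk1 0.72 (0.71), Pfkfb3 0.72 (0.80), Gapdh 0.72 (0.77), Tpi1 0.70 (0.75), Pfkp 0.67 (0.72) and Hk2 0.67 (0.67), each with an adjusted permutation p of at most 0.0422. The oxygen sensors Egln1 (0.81, 0.85) and Egln3 (0.63, 0.68), both HIF targets themselves, the histone demethylase gene Kdm3a (0.80, 0.73) and Adm (0.76, 0.76) were called too. Ldha (0.56, 0.60) and the lactate exporter Slc16a3 (0.61, 0.71) had adjusted p of 0.0811 and 0.0678 for r, and 0.0740 and 0.0354 for rho. Eno1 (0.49, 0.57), Pdk1 (0.46, 0.48) and Car9 (0.28, 0.35) were not called, nor was Hif1a itself (0.40, 0.31), whose product is controlled mainly by its breakdown. Slc2a3 was near 0 (0.03, 0.09). Pfkfb4 (-0.65, -0.62) and Aldoc (-0.51, -0.39) were negative, with adjusted permutation p for r of 0.0744 and 0.234.

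Over all 24 tumours 22 genes were called, 21 positive and 1 negative, against 25.0% of all genes called and 11.3% called with a positive r. Of these, 17 were among the 22 called over 20 tumours. The 5 gained were Pfkl, Hk1, Eno1, Pdk1 and Pfkfb4, and the 5 lost were Aldoa, Adm, Pfkfb3, Gapdh and Hk2. The negative one was Pfkfb4 (r = -0.68, adjusted p = 0.00701). Aldoa came to r = -0.08 and Pfkfb3 to 0.05 with the muscle-rich libraries in, Gapdh to 0.41, Hk2 to 0.37 and Adm to 0.45, none of them called. With relative log expression factors 22 genes were called over the 20 tumours, all positive, against 9.86% of all genes (4.22% with a positive r), and with plain library totals 19, all positive, against 9.04% (2.57%).

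**Figure D5:**
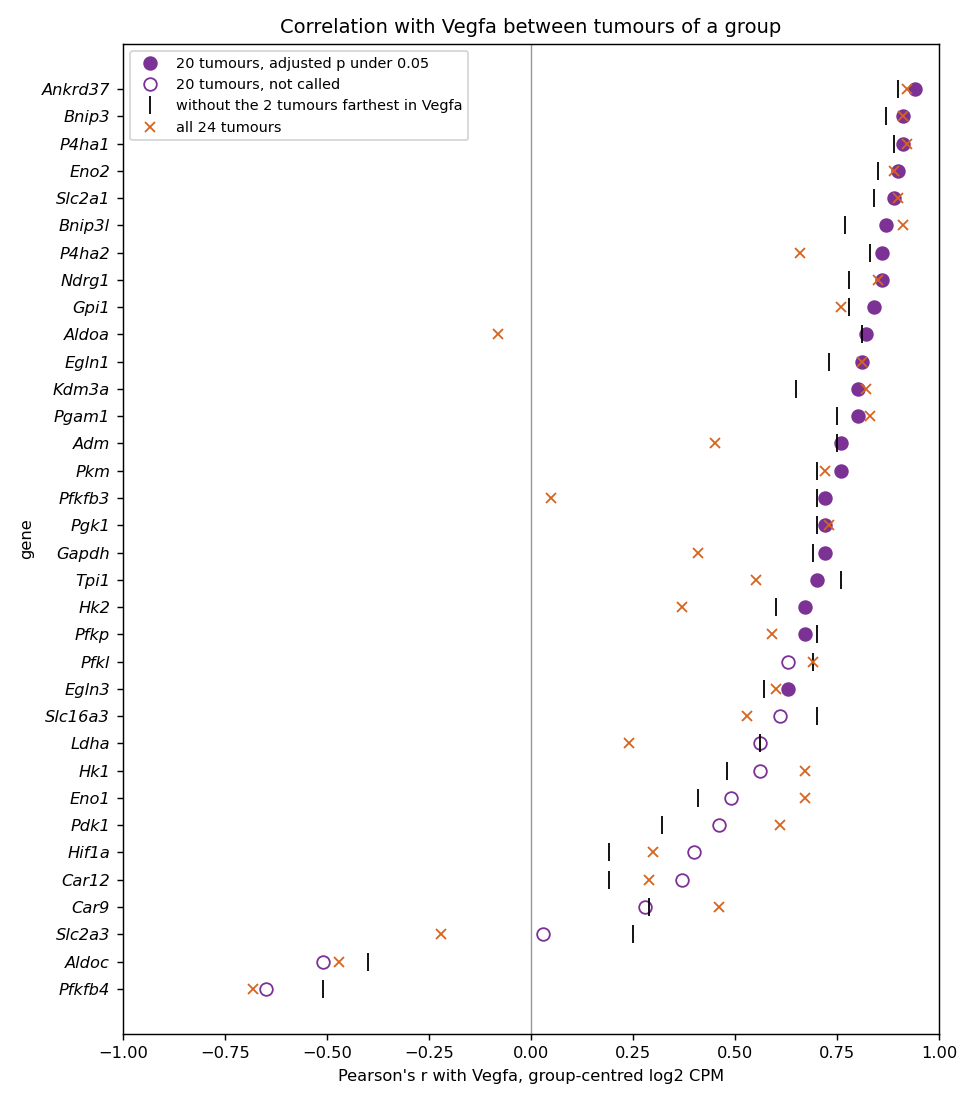
Pearson's r of each gene with Vegfa across tumours, on log2 CPM with group means removed; purple points are the 20 tumours that are not muscle-rich (filled where the adjusted permutation p is under 0.05), black ticks leave out the 2 tumours farthest in Vegfa, and orange crosses are all 24 tumours. The crosses of Aldoa, at -0.08, and Pfkfb3, at 0.05, lie far from their points at 0.82 and 0.72.

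Other measures moved with Vegfa over the same 20 tumours. Of 14 marker scores and library measures, the summed proliferation markers had r = -0.83 (rho = -0.85, adjusted permutation p = 0.00042 for r), neutrophil markers -0.71 (-0.76, 0.0056), macrophage markers -0.71 (-0.57, 0.00828) and the remaining skeletal muscle markers -0.71 (-0.68, 0.00714). Markers of undifferentiated melanoma had r = 0.80 (0.72, 0.0056) and endothelial markers 0.69 (0.68, 0.00714). The former sum, at 1926.5 to 3492.7 CPM, rested largely on Aqp1 (552.4 to 1604 CPM) and Axl (761.2 to 1018 CPM). Which cells carried these 2 transcripts was not tested. T cell markers (-0.37, -0.15, 0.242), the TMM factor (-0.60, -0.49, 0.0594) and the library total (-0.44, -0.50, 0.072) were not called. Without the same 2 tumours the called ones kept r between 0.58 and 0.84 in size with their sign, and their part in the correlations of the set was not tested.

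Promoter windows of the genes of the set that ran most closely with Vegfa are shown for the HIF core letters they hold or lack. They come from the same RefSeq table and build, at chr8:45999801-46000100 (minus strand) for Ankrd37, chr7:138909457-138909756 (minus) for Bnip3, chr10:59323046-59323345 (plus) for P4ha1, chr6:124769624-124769923 (minus) for Eno2 and chr4:119108495-119108794 (plus) for Slc2a1. The window of Ldha, at chr7:46845554-46845853 (plus), is shown beside them as the one with the most ACGTG, from a gene whose correlation with Vegfa was not called.
Ankrd37: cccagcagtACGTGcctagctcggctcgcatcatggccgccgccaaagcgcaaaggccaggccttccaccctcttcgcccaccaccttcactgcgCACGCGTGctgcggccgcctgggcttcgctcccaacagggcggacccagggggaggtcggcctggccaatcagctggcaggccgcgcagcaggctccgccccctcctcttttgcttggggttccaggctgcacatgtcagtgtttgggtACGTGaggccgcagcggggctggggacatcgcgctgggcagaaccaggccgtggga
Bnip3: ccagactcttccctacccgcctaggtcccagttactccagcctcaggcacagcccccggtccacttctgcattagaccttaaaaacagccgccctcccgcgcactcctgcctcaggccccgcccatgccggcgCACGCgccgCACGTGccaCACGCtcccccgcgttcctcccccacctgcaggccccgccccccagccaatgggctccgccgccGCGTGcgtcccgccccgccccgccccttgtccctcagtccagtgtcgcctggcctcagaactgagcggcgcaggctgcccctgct
P4ha1: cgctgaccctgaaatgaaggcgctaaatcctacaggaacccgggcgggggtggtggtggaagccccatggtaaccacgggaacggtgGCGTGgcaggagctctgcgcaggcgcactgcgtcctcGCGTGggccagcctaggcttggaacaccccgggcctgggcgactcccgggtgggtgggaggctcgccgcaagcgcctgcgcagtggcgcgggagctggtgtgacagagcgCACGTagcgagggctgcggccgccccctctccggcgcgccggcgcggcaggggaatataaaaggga
Eno2: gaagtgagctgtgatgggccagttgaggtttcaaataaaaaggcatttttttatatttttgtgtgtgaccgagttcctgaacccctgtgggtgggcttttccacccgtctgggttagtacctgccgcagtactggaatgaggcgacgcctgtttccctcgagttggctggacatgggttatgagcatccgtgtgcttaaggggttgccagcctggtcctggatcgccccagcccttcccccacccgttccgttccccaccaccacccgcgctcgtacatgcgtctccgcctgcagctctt
Slc2a1: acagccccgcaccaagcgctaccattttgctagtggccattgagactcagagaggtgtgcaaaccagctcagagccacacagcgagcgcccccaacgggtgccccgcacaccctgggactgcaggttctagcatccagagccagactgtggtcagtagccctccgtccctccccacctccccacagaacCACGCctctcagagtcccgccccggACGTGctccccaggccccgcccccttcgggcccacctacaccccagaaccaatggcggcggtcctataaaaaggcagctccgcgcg
Ldha: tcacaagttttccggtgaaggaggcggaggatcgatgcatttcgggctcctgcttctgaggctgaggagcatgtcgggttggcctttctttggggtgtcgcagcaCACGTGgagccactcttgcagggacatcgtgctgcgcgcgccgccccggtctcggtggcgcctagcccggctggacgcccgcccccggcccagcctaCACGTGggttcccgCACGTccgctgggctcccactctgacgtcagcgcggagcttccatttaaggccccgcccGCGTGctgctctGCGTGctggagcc
The Ldha window holds ACGTG 5 times and GCGTG 2 times, against 2 and 2 for Ankrd37, 2 and 3 for Bnip3, 1 and 2 for P4ha1, 0 and 0 for Eno2 and 1 and 1 for Slc2a1. Of the 35 genes, 32 matched the table with 45 windows, and 34 of the windows (75.6%) held either motif, against 43.8% of all 32851 windows. The shares were 51.1% against 19.6% for ACGTG and 53.3% against 32.4% for GCGTG. These shares are a description with no test, and the motifs stood in windows of genes that ran with Vegfa and of genes that did not.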

How the data were processed

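RNA from 24 D4M tumours, 6 per group, was sequenced, 1 library per tumour. The authors deposited a table of raw read counts per Ensembl gene. The submitters' processing notes name HISAT2 2.2.1 and StringTie 2.2.1 with GRCm39, besides Trim Galore 0.6.7 with FastQC 0.11.8 and MultiQC 1.11. For the counting program, annotation and strand, the sources used here give nothing, so overlapping loci such as the 2 Aldoa identifiers are uncertain. Deposited tables of FPKM and TPM values were not used.

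Genes with low counts were removed with filterByExpr, leaving 16029. Counts were scaled by TMM and fitted with edgeR 4.0.16 (R 4.3.3), using robust quasi-likelihood and 1 mean per group over 24 libraries. Standard errors are the log2 fold change divided by the root of F. P-values were adjusted by Benjamini-Hochberg over all genes tested, with calls under 0.05. DESeq2 1.42.0, limma 3.58.1 voom with quality weights, a replicate block, relative log expression factors, no expression filter, no robust dispersion, only the groups compared, leaving out the 4 muscle-rich libraries and leaving out each tumour were the alternatives. A covariate from the skeletal muscle markers and, for the correlations, plain library totals were added after seeing the data. The edgeR step was tested on simulated data for the contrast of BRQ+IgG2a with IgG2a. The share of simulated differences that it called was 18.6% at 1.5-fold (70 genes), 57.1% at 2-fold (70 genes) and 98.3% at 4-fold (60 genes). These genes were drawn at random from expressed genes, not from the set, so the shares are not rates for its members. A missing call alone does not show that a gene was unchanged. Correlations with Vegfa used log2 CPM (prior count 2) with group means removed and 100000 permutations within groups, with Python 3.11.15 and scipy 1.17.1.

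Exon lengths came from GENCODE on GRCm38 and promoters from RefSeq on GRCm38.p6. No coordinates were converted. Library totals were 19106205 to 34282319 counts, and intervals from counting alone do not include differences between tumours. The members and gene lists were chosen with earlier results of these data known. Genes given in every comparison are Slc2a1, Hk2, Pfkfb3, Aldoa, Pgk1, Ldha, Pdk1, Slc16a3, Vegfa, Car9, Bnip3, Egln3, Adm and Hif1a, besides any called and the 2 largest and 2 smallest values. Other genes were named after their values were seen.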

Additional observations from a re-analysis of the deposited data

Results flagged for a closer look

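In each gene and group, the highest or lowest of the 6 tumours was compared with its nearest neighbour. Of 144 such groups, 14 had a tumour whose gap exceeded Dixon's critical value of 0.625 of the group's range, where chance gives about 1 in 20, and 2 of the 14 were muscle-rich libraries. BRQ+PD-1 tumour 6 was highest for Eno1 (2261 CPM, next 1817), Gapdh (3268, next 2526), Car9 (49.7, next 34.2) and Slc16a3 (175.1, next 133.2). BRQ+IgG2a tumour 5 was highest for Slc2a1 (751 CPM, next 334.2), P4ha1 (482.8, next 293.3) and Hif1a (276.9, next 185.9). IgG2a tumour 4 was highest for Egln1 (229.3 CPM, next 189.2), Ndrg1 (189.1, next 103.2) and Hif1a (256.7, next 183.5). Car12 was highest in BRQ+PD-1 tumour 1 (15.9 CPM, next 2.42) and in PD-1 tumour 5 (15.9, next 4.36). The muscle-rich PD-1 tumour 6 was lowest for Eno2 (20.3 CPM, next 37.0), and the muscle-rich BRQ+IgG2a tumour 4 was highest for the second identifier of Aldoa (5.82, next 2.36).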

How the results depend on the processing

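With all 24 tumours and edgeR, 0 of 36 genes were called in each comparison. In BRQ+IgG2a against IgG2a, DESeq2 called 1 (Slc2a3), limma voom 3 (Pfkfb3, Slc2a3 and Aldoc) and the muscle covariate 1 (Slc2a3). The fit without the muscle-rich libraries called 1 (Pfkfb3), and leaving out 1 tumour gave 0 to 2. In BRQ+PD-1 against IgG2a, DESeq2 called 1 (the second identifier of Aldoa) and limma voom 2 (Pfkfb3 and Hk1). The fit without the muscle-rich libraries called 1 there (Pfkfb3), and leaving out 1 tumour gave 0 to 1. In BRQ+PD-1 against PD-1, limma voom called 1 (Pfkfb3). Over both antibodies, DESeq2 called 1 (Hk2) and limma voom 3 (Pfkfb3, Slc2a3 and Aldoc). The muscle covariate and the fit without the muscle-rich libraries each called 1 (Pfkfb3), and leaving out 1 tumour gave 0 to 2. Of 169 counts under alternatives, 150 stayed within the limit set for a change and 19 moved. The Aldoa value reversed without the muscle-rich libraries, to 0.27 in BRQ+IgG2a against IgG2a and 0.13 over both antibodies. Of 6084 single-gene values, 26 became called and 555 uncalled ones changed sign with 1 or both values within their standard error, among them the second Aldoa identifier at 0.23.

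The replicate numbers did not pair the tumours: over 36 pairs of equal number the correlation of deviations ran from -0.64 to 0.44, with 15 over 0.1. With the replicate block, 0 of 36 genes were called in each comparison.

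The Pfkfb3 call differed with and without the tumours of high Acta1, and the cause was not tested. The muscle covariate was chosen after seeing the data. Exon lengths from another genome build, merged over all annotated exons of a gene (8532 bases for Hk1, 3682 for Hk3), limit the isozyme shares. The doses and days are not known.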
